A study of Rattus norvegicus with 8 samples.

Results

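Laminins, integrins and the proteins of hemidesmosomes join epithelial cells to the basement membrane, and 38 genes of this kind were measured in the enamel organ of the rat incisor at the secretory and the maturation stage of enamel formation. Members were taken by gene symbol: laminin chains (Lama, Lamb and Lamc with a number), every symbol that begins with Itga or Itgb, the nidogens Nid1 and Nid2, and Col17a1, Plec1, Dst, Cd151, Hspg2, Agrn, Dag1 and Bcam. This gave 38 of the 21558 gene names on the array, each read by 1 of its 22523 probes, and no probe carried the symbol Hspg2. The 8 arrays came from 4 male Wistar Hannover rats, 4 weeks old, for which no treatment is named. Each rat gave 1 secretory-stage and 1 maturation-stage sample, dissected as the cell layer that lies on the enamel, and total RNA of each sample was hybridised to an Illumina rat bead array. The rats were processed separately, so the p-values measure the spread between animals. The layer is a mixture of cells: besides ameloblasts it holds the other layers of the enamel organ and adherent tissue, and a lower signal from fewer cells of a type cannot be told apart from less RNA per cell.

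Laminins are trimers of an alpha, a beta and a gamma chain that polymerise into the sheet of the basement membrane, where nidogens, agrin and perlecan cross-link them to other matrix. Integrins are cell-surface receptors made of an alpha and a beta chain. In hemidesmosomes the integrin pair of Itga6 and Itgb4 binds an epithelial laminin that holds Lama3 and Lamb3 outside the cell, while plectin (Plec1) and dystonin (Dst) tie the pair to keratin filaments inside, and collagen XVII (Col17a1) and the tetraspanin Cd151 belong to the same junction. Ameloblasts, the epithelial cells that make enamel, secrete its matrix in the secretory stage and withdraw water and protein from it in the maturation stage, when they attach to the enamel surface through a specialised basal lamina with hemidesmosomes. Inherited loss of Itgb6, Lamb3 or Col17a1 is known to disturb enamel formation.

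Before any result, the labels were checked against stage markers, since the source field of maturation replicates 2, 3 and 4 carries the wording of the other stage, against their titles, descriptions and tissue entries. The titles were followed. Every array correlated at 0.9903 or above with each array of its own titled stage and at 0.9492 or below with any of the other (normalized log2 signal). Enam, which encodes the matrix protein enamelin, was lower in maturation by a log2 fold change of -4.98 ± 0.786 (SE, n = 4 rats), and Klk4, the protease of the maturation stage, was higher by 7.57 ± 0.236 on the probe detected at both stages. On the maturation arrays Enam read 9.08, 5.17, 5.53 and 8.22 for rats 1 to 4, higher in rats 1 and 4, against 11.94 to 12.03 on the secretory arrays. Of 4 secretory-stage ameloblast genes, 2 were called lower, Enam and Mmp20, while Amelx and Ambn differed by -0.53 (adjusted p = 0.0555) and -0.36 (adjusted p = 0.0353). Of 5 probes for 4 maturation-stage ameloblast genes, all 5 were called higher. Between 10667 and 10941 probes were detected on the secretory arrays and between 11164 and 11450 on the maturation arrays.

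Values are log2 signals after background correction and quantile normalization, and each log2 fold change is maturation minus secretory with its standard error. A probe was called changed at a Benjamini-Hochberg adjusted p (limma, over all 22523 probes) below 0.05 and a fold of at least 1.8. Of the 38 members, 3 were called higher in maturation, the laminin chains Lamb2, Lama5 and Lamc1, where 4.6% of all probes were. A further 4 were called lower, Dst, Itgb6, Itga10 and Lama1, where 3.15% of all probes were. The remaining 31 members were not called. At any fold, 18 members had an adjusted p below 0.05, of which 9 were higher and 9 lower, where 26.9% of all probes passed and 50.6% of the 11233 probes detected on at least 4 arrays. Of those detected probes 9.19% were called higher and 6.27% lower. Which members passed at any fold moved with the scaling: 15 of the 18 and 10 others passed with median scaling (18 higher and 7 lower in all), and 14 of the 18 and 11 others without normalization between arrays (20 higher and 5 lower). In 18 members the values of the 2 stages did not overlap, as in 27.7% of all probes. This counts Lamc3, which no array detected. Of the members detected on at least 4 arrays 17 did not overlap, where 49.5% of all such probes did not. The median log2 fold change over the members was 0.11, against -0.01 over all probes. Its median size regardless of sign was 0.35 over the members, 0.12 over all probes and 0.32 over the detected probes, while 8 of the 38 members were not so detected. Of the members, 30 were detected on at least 4 arrays (78.9%, against 49.9% of all probes), 27 were detected on all 8 arrays and 4, Lamc3, Itga2, Itgb8 and Itgad, on none.

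**Figure D1:**
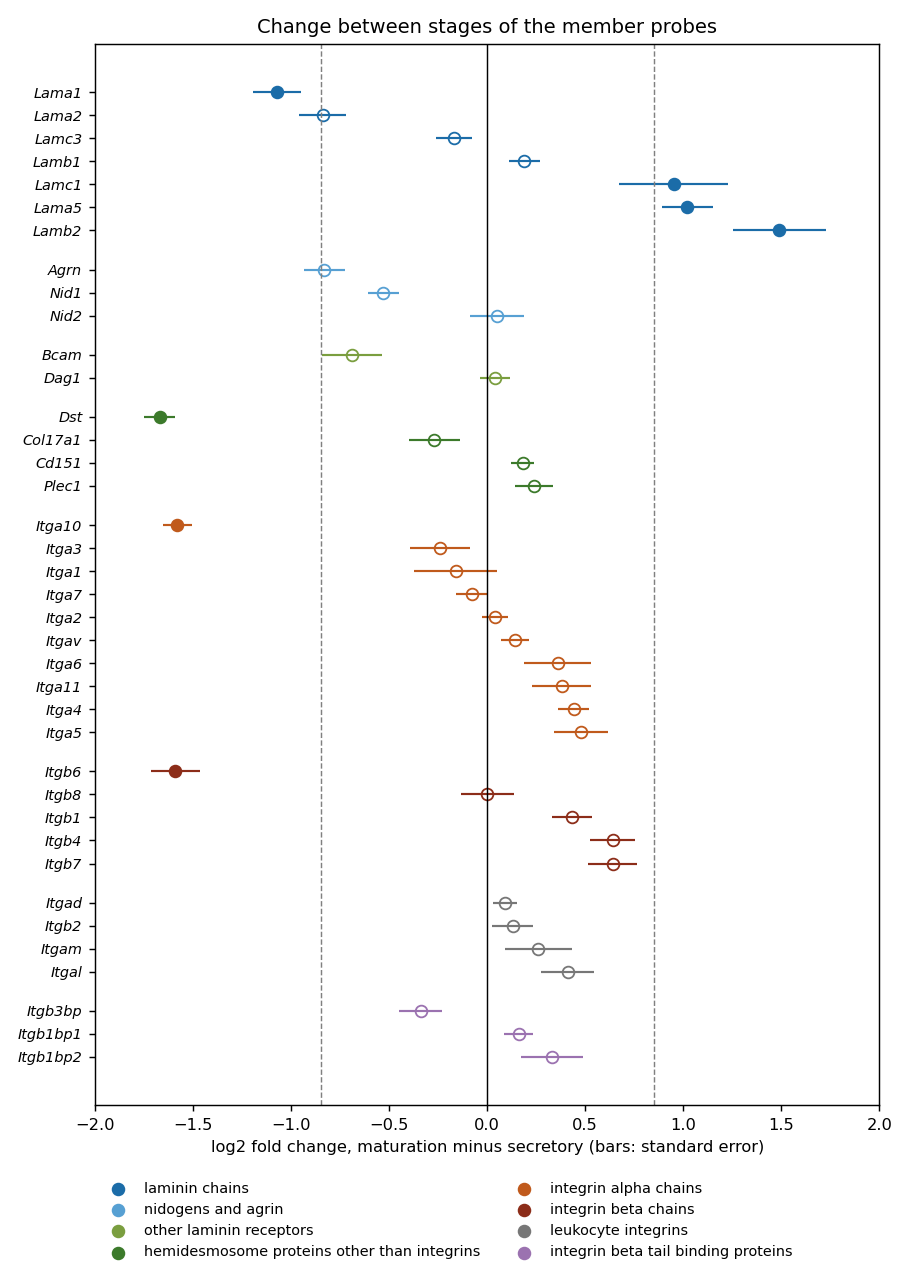
The log2 fold change (x axis, maturation minus secretory) of each of the 38 member probes, grouped by role, with bars for the standard error; filled circles passed the call and dashed lines mark the fold threshold of 1.8. Calls on both sides of 0 lie among the laminin chains, from -1.07 for Lama1 to 1.49 for Lamb2. Dst and Itgb6 stand apart on the left at -1.67 and -1.59. Next to them lies Itga10, whose point is drawn from a maturation signal not above background. For Itga10 the values as reported give a limit of at least 2.62-fold rather than a measured change.

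The laminin chains held 4 of the 7 calls. Of 7 chains, 3 were called higher, where 4.6% of all probes and 9.19% of detected probes were. The 1 called lower stands beside 3.15% and 6.27%. The median size of the change was 0.95 over these 7 chains, 0.12 over all probes and 0.32 over detected probes. The 7 leave out Lamb3, Lama4 and Lama3, found by gene ID and given below, of which Lamb3 was called lower. Alpha chains were called in both directions, Lama5 higher and Lama1 lower.

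Lamb2, a beta chain of vascular, neural and muscle basement membranes, had the largest rise. Its normalized log2 signal was 7.68, 8.30, 8.36 and 7.99 on the secretory arrays of rats 1 to 4 and 8.94, 10.03, 9.88 and 9.45 on their maturation arrays. Every maturation value lay above every secretory one, and the log2 fold change was 1.49 ± 0.239 (2.81-fold, adjusted p = 0.0011). Lama5, the widespread alpha chain of mature epithelial and vascular basement membranes, read 8.53, 8.75, 8.65 and 8.45 in the secretory stage. In the maturation stage it read 9.32, 9.91, 9.76 and 9.46, again without overlap. The log2 fold change of Lama5 was 1.02 ± 0.130 (2.02-fold, adjusted p = 0.000267).

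Lamc1, the gamma chain shared by most laminins, was a dim probe and the least secure of the calls. It read 6.37, 4.99, 5.85 and 6.29 in the secretory stage and 6.61, 7.15, 6.70 and 6.82 in the maturation stage, and was detected on 3 of 4 secretory arrays. The stages did not overlap, and the log2 fold change was 0.95 ± 0.277 (1.93-fold, adjusted p = 0.0299). The secretory array of rat 2 was low, and without it the log2 fold change was 0.65, under the fold threshold. The call was also lost without the maturation array of rat 2, 3 or 4 and without the secretory array of rat 3, with log2 fold changes of 0.84, 0.99, 0.95 and 0.94 and adjusted p-values of 0.0851, 0.0536, 0.0671 and 0.0656. With the rat as a block the adjusted p of Lamc1 was 0.056, and with the test that the study's methods name it was 0.108. The log2 fold change of Lamc1 was 0.43 without background correction, 0.64 with an offset of 50 and 0.77 with a background estimated without negative controls, each under the fold threshold.

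On the other side, Lama1, an alpha chain best known from embryonic basement membranes, read 7.40, 7.80, 7.50 and 7.55 in the secretory stage and 6.62, 6.63, 6.56 and 6.16 in the maturation stage. Lama1 was lower in all 4 rats by a log2 fold change of -1.07 ± 0.122 (2.10-fold, adjusted p = 0.000127).

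Just outside the fold threshold lay Lama2, the alpha chain known from muscle and peripheral nerve, and agrin (Agrn), a heparan sulfate proteoglycan of basement membranes. Lama2 read 9.91, 10.33, 10.28 and 9.99 in the secretory stage and 9.50, 9.24, 9.33 and 9.08 in the maturation stage. Its log2 fold change was -0.84 ± 0.120 (1.79-fold, adjusted p = 0.000539), and it passed the fold threshold without the array of rat 1 of either stage, the maturation array of rat 3 or the secretory array of rat 4, at -0.91, -0.91, -0.85 and -0.88. With median scaling the log2 fold change of Lama2 was -0.52 (adjusted p = 0.0148), and without normalization between arrays it was -0.32 and did not pass the test (adjusted p = 0.154). Agrn read 11.92, 11.93, 11.94 and 11.56 in the secretory stage and 11.00, 11.10, 11.14 and 10.81 in the maturation stage. Its log2 fold change was -0.83 ± 0.106 (1.77-fold, adjusted p = 0.000265), and it passed the threshold without the maturation array of rat 2 or 3 or the secretory array of rat 4, at -0.85, -0.87 and -0.92. With median scaling Agrn stood at -0.60 and without normalization between arrays at -0.40 (adjusted p = 0.0199). Both genes were lower in all 4 rats without overlap, as were the 4 members called lower, and their falls were smaller than those of these 4. Just inside the threshold lay Lamc1 at 1.93-fold and Lama5 at 2.02-fold.

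The remaining chains and cross-linkers moved less. Lamb1, the beta chain that most laminins share, stood at 11.73 ± 0.0833 in the secretory and 11.92 ± 0.127 in the maturation stage (mean ± SD, n = 4), a difference of 0.19 with an adjusted p of 0.109, and of 0.41 with median scaling (adjusted p = 0.00696). Nidogen-encoding Nid1 was lower by a log2 fold change of -0.53 ± 0.0781 (adjusted p = 0.00062), below the fold threshold, and stood at -0.18 with median scaling (adjusted p = 0.158) and at 0.02 when the arrays were not normalized to each other. Nid2, the other nidogen, differed by 0.05 ± 0.137, and its sign changed when single arrays were left out. Lamc3, a gamma chain, was not detected on any array.

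**Figure D2:**
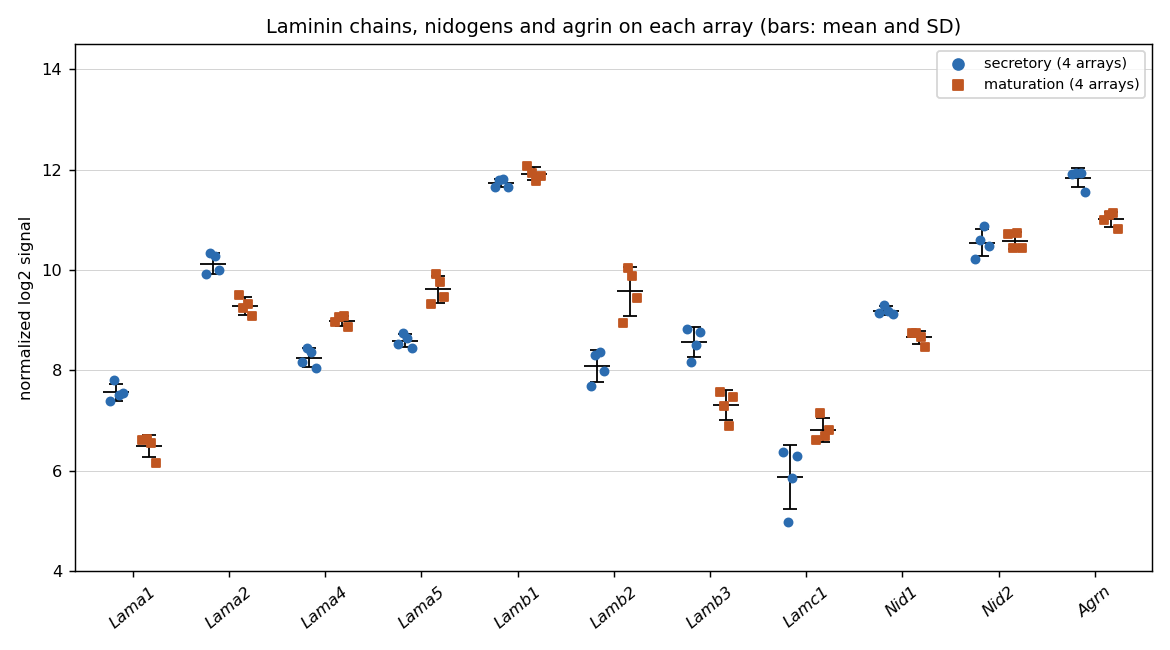
The normalized log2 signal (y axis) of laminin chains, nidogens and agrin on each of the 8 arrays, with secretory arrays as circles, maturation arrays as squares, and bars for mean and SD. Lama5 and Lamb2 sit higher in maturation and Lama1 and Lamb3 lower, with no overlap between stages, and the secretory value of 4.99 for Lamc1 lies away from the other 3; Lama4 and Lamb3 were found by gene ID and are not among the 38.

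Probes for 7 further genes of these families carried only a provisional symbol on the array and were named through their gene ID, so they fall outside the 38. One of them is Lamb3, a laminin beta chain of epithelial hemidesmosomes. It read 8.82, 8.17, 8.50 and 8.76 in the secretory stage and 7.57, 7.29, 6.89 and 7.47 in the maturation stage. It was called lower by a log2 fold change of -1.26 ± 0.177 (2.39-fold, adjusted p = 0.000482). The probe for Lama3, an alpha chain of the same junction, was not detected on any array and gave no level. Lama4, an alpha chain of endothelial basement membranes, was higher by 0.74 ± 0.0988 (1.67-fold, adjusted p = 0.000356), below the fold threshold, with no overlap between stages, and passed the call at 1.09 with median scaling and 1.29 without normalization between arrays. A perlecan probe, found only through its definition line, was not detected on any array.

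The 3 laminin chains called higher are chains of vascular basement membranes among others, so markers of blood vessel lining were set beside them. Of 8 endothelial probes, 2 were called higher, Vwf at a log2 fold change of 0.88 and Cldn5 at 1.11, and none lower. Their summed signal (linear scale, after normalization) ran from 5162 to 6396 over the secretory arrays and from 6947 to 8808 over the maturation arrays. The endothelial cadherin Cdh5 was not detected on any array, and Emcn differed by less than 0.01. Among probes of nerve and Schwann cells, whose basement membrane also holds Lamb2, 2 of 5 were called higher, S100b and Pmp22, and of smooth muscle and pericyte probes 2 of 6, Rgs5 and Des, while 1 of 2 probes for Myh11 was detected on no array. The summed signal of the nerve list ran from 2630 to 3472 and from 4698 to 6166, and that of the smooth muscle list from 2038 to 2878 and from 2254 to 2713. Such sums lean on their brightest probe, which was Pmp22 for the nerve list (89.3% to 94.5% of the sum), Tagln for the smooth muscle list (73.5% to 87.3%) and Emcn for the endothelial list (35.7% to 53.9%). The part of these cells in the laminin values was not tested.

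Promoter sequences were available from RefSeq for 28 of the 38 members (assembly GRCr8) and are shown for the 6 called members that the table holds, as the last 150 bases before the annotated transcription start, with each GC box (GGGCGG, or CCGCCC for the other strand) in capitals.
Lama5 (higher, chr3:187695975-187696124, minus strand): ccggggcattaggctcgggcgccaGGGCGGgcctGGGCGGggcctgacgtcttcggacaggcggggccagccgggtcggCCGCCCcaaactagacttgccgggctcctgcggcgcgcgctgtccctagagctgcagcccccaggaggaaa
Lamc1 (higher, chr13:68051987-68052136, minus strand): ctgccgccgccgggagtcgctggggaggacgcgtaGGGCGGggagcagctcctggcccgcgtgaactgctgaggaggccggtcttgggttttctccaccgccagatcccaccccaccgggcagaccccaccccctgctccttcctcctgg
Dst (lower, chr9:43731872-43732021, plus strand): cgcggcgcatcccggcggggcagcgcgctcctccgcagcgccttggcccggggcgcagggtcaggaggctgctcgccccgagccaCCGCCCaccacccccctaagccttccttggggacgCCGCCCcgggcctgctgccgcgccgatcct
Itga10 (lower, chr2:186871561-186871710, plus strand): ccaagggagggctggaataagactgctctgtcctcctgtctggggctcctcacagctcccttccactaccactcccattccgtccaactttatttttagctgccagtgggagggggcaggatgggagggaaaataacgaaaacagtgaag
Itgb6 (lower, chr3:65530334-65530483, minus strand): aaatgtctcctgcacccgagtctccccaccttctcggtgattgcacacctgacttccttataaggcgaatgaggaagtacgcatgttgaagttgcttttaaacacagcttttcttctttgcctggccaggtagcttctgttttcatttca
Lama1 (lower, chr9:115139398-115139547, plus strand): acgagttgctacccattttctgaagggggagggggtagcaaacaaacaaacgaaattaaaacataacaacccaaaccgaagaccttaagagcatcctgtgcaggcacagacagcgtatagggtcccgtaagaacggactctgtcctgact

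The sequences fell into GC-rich promoters, those of Lama5, Lamc1 and Dst, and promoters of ordinary composition, those of Itga10, Itgb6 and Lama1. Over the 250 bases before the start, on both strands, Lama5 held 4 GC boxes, Lamc1 held 5 and Dst held 6, while Itga10, Itgb6 and Lama1 held none. Lamb3, found by gene ID and called lower, also held none, so among these lower genes only Dst held GC boxes. Which form of Dst the probe reads is not known, so the start shown need not be that of the form that fell. A link between GC boxes and the direction of change was not tested. A GC box was found in 17 of the 28 members (60.7%), against 32.4% of the 27457 promoters in the table. The median GC content of these windows was 61.2% over the members and 52.0% over all promoters. All promoters of the table entered this comparison, whether or not their gene was detected here. Of the 38 members 78.9% were detected on at least 4 arrays, against 49.9% of all probes, so the sets are not matched for detection. The TATA box (TATAAA) was found in 7.14% of members and 13.1% of all promoters, the RUNX motif (TGTGGT) in 10.7% and 14.1%, and the AP-1 motif (TGANTCA) in 0 members and 6.36% of all promoters. No motif holds the letters of another, and a match describes the sequence only.

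Among the receptors, the hemidesmosome proteins did not move as 1 group. Dst, which encodes dystonin and whose epithelial form is the hemidesmosomal plakin BPAG, had the largest fall among members detected at both stages, but the gene also gives neural and muscle forms, and the array does not say which form the probe reads. It read 8.58, 8.52, 8.29 and 8.38 in the secretory stage and 6.80, 6.71, 6.89 and 6.69 in the maturation stage. The stages lay far apart and all 4 rats were lower, with a log2 fold change of -1.67 ± 0.0800 (3.18-fold, adjusted p = 5.24e-07). Itgb4, the beta chain of the hemidesmosome integrin, ran the other way. It read 10.89, 10.88, 10.67 and 10.37 in the secretory stage and 11.25, 11.43, 11.42 and 11.26 in the maturation stage, without overlap. Its log2 fold change was 0.64 ± 0.116 (1.56-fold, adjusted p = 0.00226), below the fold threshold. With each array scaled to its median, or with no normalization between arrays, it passed the threshold at 0.91 and 1.11.

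Its partner Itga6 read 7.36, 7.43, 7.48 and 7.53 in the secretory stage and 7.25, 8.21, 7.92 and 7.86 in the maturation stage. Rat 1 was slightly lower in maturation and the other 3 rats higher, and the log2 fold change of 0.36 ± 0.171 did not pass the test (adjusted p = 0.174). Without the maturation array of rat 1 it was 0.55 (adjusted p = 0.00247), and Itga6 also passed the test with median scaling, at 0.70 (adjusted p = 0.00887), and the call without normalization between arrays, at 0.90. Col17a1 read 12.13, 12.17, 11.97 and 11.77 in the secretory and 11.48, 12.03, 11.83 and 11.60 in the maturation stage. All 4 rats were lower but the stages overlapped, at -0.27 ± 0.131 (adjusted p = 0.177), and the sign turned to 0.14 without normalization between arrays. Plec1, the plectin gene, read 10.68, 10.72, 10.78 and 10.54 against 10.72, 10.81, 11.11 and 11.02, a difference of 0.24 ± 0.0968 that did not pass (adjusted p = 0.114). Plec1 passed at 0.52 with median scaling (adjusted p = 0.00158) and at 0.72 without normalization between arrays. Cd151, the tetraspanin that associates with laminin-binding integrins, was steady within each stage. It read 11.68, 11.53, 11.58 and 11.67 against 11.76, 11.80, 11.84 and 11.77, a difference of 0.18 ± 0.0574 with an adjusted p of 0.0493 and a fold of 1.13. With the rat as a block the adjusted p of Cd151 was 0.108, and over the 8 fits that lack 1 array it ran from 0.0515 to 0.122. With median scaling Cd151 stood at 0.40 (adjusted p = 0.000545) and without normalization between arrays at 0.60. Of the 6 hemidesmosome genes found by symbol, 1 was therefore called lower, and the other 5 were below a fold of 1.8 in the values as reported.

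The beta chain with the largest change was Itgb6, an epithelial chain that pairs with Itgav and activates latent TGF-beta. Itgb6 read 11.86, 11.95, 11.69 and 12.00 in the secretory stage and 10.17, 10.54, 9.98 and 10.43 in the maturation stage. All 4 rats were lower and the stages were over 1 log2 unit apart at their closest, with a log2 fold change of -1.59 ± 0.124 (3.02-fold, adjusted p = 1.07e-05). Its only known partner chain, Itgav, differed by 0.14 ± 0.0707 and did not pass (adjusted p = 0.207), but did at 0.47 with median scaling (adjusted p = 0.00129) and at 0.67 without normalization between arrays. Itgav read 9.53, 9.49, 9.55 and 9.38 in the secretory and 9.48, 9.70, 9.62 and 9.70 in the maturation stage. Itgb8, another partner of Itgav, was not detected on any array, and an integrin beta-5-like probe found by its definition line read between 10.99 and 11.37 over all 8 arrays.

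Itga10, a collagen-binding alpha chain best known from cartilage, was detected on all 4 secretory arrays and on none of the maturation arrays. It read 6.40, 6.43, 6.28 and 6.24 in the secretory stage, and 4.65, 4.70, 4.88 and 4.80, not above background, in the maturation stage. Since the maturation signal is only an upper limit, Itga10 was at least 2.62-fold lower in maturation in the values as reported. The bound sets the secretory mean against the dimmest signals that counted as detected on the maturation arrays. The adjusted p of Itga10, 4.01e-07, belongs to the fit to all 8 arrays, background values included, and does not test the bound. Without background correction the log2 fold change of Itga10 was -0.58 and the call was lost.

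Itgb1, the beta chain that most laminin, collagen and fibronectin receptors share, was detected on all 8 arrays. It read 12.12, 12.38, 12.42 and 12.42 in the secretory and 12.53, 12.92, 12.87 and 12.74 in the maturation stage, higher in all 4 rats. The log2 fold change of Itgb1 was 0.43 ± 0.102 (1.35-fold, adjusted p = 0.011). Itga5, its partner in the fibronectin receptor, was higher by 0.48 ± 0.138 (adjusted p = 0.027, and 0.0505 to 0.0742 without the secretory array of rat 1 or 4 or any 1 of the 4 maturation arrays), with secretory values of 7.91, 8.51, 8.55 and 8.06 and maturation values of 8.76, 8.76, 8.76 and 8.69. Itga4 and Itgb7, which form a receptor pair of lymphocytes, were higher by 0.44 ± 0.0772 and 0.64 ± 0.125 (adjusted p = 0.00185 and 0.00344), at low signals between 5.04 and 6.18. All 4 of these genes were separated between stages but below the fold threshold, which Itga5 and Itgb7 passed without normalization between arrays, at 1.03 and 0.97. Without that normalization Itgb1 stood at 0.81 and Itga4 at 0.84. Of the 10 alpha chains outside the leukocyte group, 1 was called lower, 2 had an adjusted p below 0.05 in the higher direction, and the other 7 did not pass. Of the 5 beta chains, 1 was called lower, 3 were higher at an adjusted p below 0.05 alone, and Itgb8 was undetected.

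The alpha chains that did not pass covered a narrow range. Itga11, a collagen receptor chain of fibroblasts, stood at 10.93 ± 0.307 and 11.31 ± 0.179 (mean ± SD, n = 4), a difference of 0.38 with an adjusted p of 0.105, and of 0.63 with median scaling (adjusted p = 0.0148). Itga1, Itga7 and Itga3, chains of collagen and laminin receptors, differed by -0.16, -0.08 and -0.24, and the signs of Itga1 and Itga7 turned with median scaling, to 0.18 and 0.25, and without normalization between arrays, to 0.37 and 0.45. Itga3 was detected on 3 arrays and Itga2 on none. Among genes named by gene ID, Itga9 was higher by 0.51 ± 0.159 (adjusted p = 0.0386), which was above 0.05 in 5 of the 8 fits that lack 1 array (0.058 to 0.106), and it passed the call at 0.98 without normalization between arrays. Itgbl1, which encodes a secreted integrin-like protein, was higher by 0.84 ± 0.107 (adjusted p = 0.000259, 1.79-fold). Itgbl1 passed the fold threshold without the maturation array of rat 3 or the secretory array of rat 1, at 0.95 and 0.87, and with cyclic loess, median scaling and no normalization between arrays, at 0.90, 1.15 and 1.35. Itga8 was not detected on any array.

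**Figure D3:**
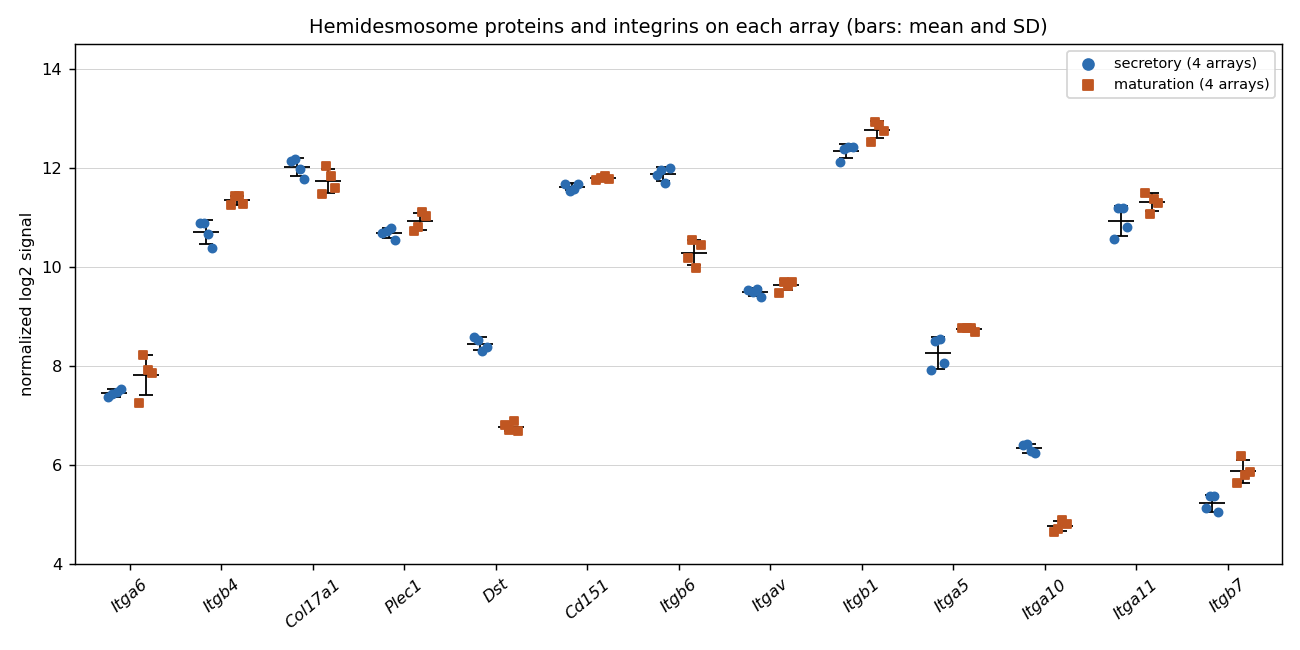
The normalized log2 signal (y axis) of hemidesmosome genes and integrins on each of the 8 arrays, with secretory arrays as circles, maturation arrays as squares, and bars for mean and SD. Dst, Itgb6 and Itga10 are lower in maturation with wide gaps, Itgb4 and Itgb1 are higher by less than 1 log2 unit, and Itga6, Col17a1 and Plec1 overlap between stages.

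Receptors of laminin outside the integrin family differed from each other. Dag1, dystroglycan, read 12.07, 12.23, 12.33 and 12.14 in the secretory stage and 12.27, 12.23, 12.32 and 12.11 in the maturation stage, a difference of 0.04 ± 0.0748 (adjusted p = 0.791). With median scaling Dag1 stood at 0.23 (adjusted p = 0.0288) and without normalization between arrays at 0.43. Bcam, the Lutheran receptor, which binds laminins that hold the Lama5 chain, read 8.18, 8.17, 8.33 and 7.83 in the secretory and 7.11, 7.65, 7.71 and 7.28 in the maturation stage. Bcam was lower in all 4 rats by -0.69 ± 0.151 (1.61-fold, adjusted p = 0.00703), below the fold threshold. With median scaling Bcam stood at -0.36 and without normalization between arrays at -0.16, and neither passed the test (adjusted p = 0.0871 and 0.446). The symbol rule also took up 3 proteins that bind the inner tails of beta chains and are not integrins themselves, Itgb1bp1, Itgb1bp2 and Itgb3bp. None of the 3 was called. Their log2 fold changes were 0.16, 0.33 and -0.34, the last with an adjusted p of 0.0473 that was above 0.05 with 7 of the 8 arrays left out singly, and with a sign that turned to 0.20 without normalization between arrays. With the rat as a block the adjusted p of Itgb1bp2 was 0.0458 and that of Itgb3bp 0.0234. Itgb1bp1 and Itgb1bp2 passed the test with median scaling, at 0.45 and 0.54 (adjusted p = 0.00146 and 0.0293).

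The leukocyte integrins, kept apart from the rest, lay at the edge of detection. Itgal, Itgam and Itgb2 were detected on 0, 1 and 0 of the secretory arrays and on 3, 2 and 2 of the maturation arrays. Itgal, the alpha chain of lymphocyte function antigen, read 4.42, 4.95, 4.56 and 4.50 against 5.18, 5.03, 5.13 and 4.71, a difference of 0.41 ± 0.136 (adjusted p = 0.0551). Itgal passed the test with the rat as a block (adjusted p = 0.0495) and, at 0.56, without normalization between arrays (adjusted p = 0.0139). Itgam, the alpha chain of the myeloid complement receptor, read 4.85, 5.14, 4.78 and 4.64 against 4.92, 4.85, 5.62 and 5.06, a difference of 0.26 ± 0.171. Itgb2, the beta chain common to these receptors, read 4.86, 4.54, 4.60 and 4.81 against 4.94, 4.59, 4.97 and 4.82, a difference of 0.13 ± 0.105 (adjusted p = 0.48). In all 3 genes the stages overlapped. Itgad, another chain of the same family, was undetected. Without these 4 genes the counts over the other 34 members were the same, 3 called higher and 4 lower.

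Itgax, the alpha chain of dendritic cells and macrophages, was named through its gene ID and lies outside the 38. It read 4.68, 5.21, 4.68 and 4.75 on the secretory arrays and 6.12, 5.64, 6.07 and 5.58 on the maturation arrays. It was above background on 1 of the former and on all 4 of the latter. Its log2 fold change was 1.02 ± 0.161 (2.03-fold, adjusted p = 0.000995). It fell to 0.35 without background correction, 0.55 with an offset of 50 and 0.83 with a background estimated without negative controls, each under the fold threshold. Other leukocyte markers moved in the same direction. Of 14 macrophage and leukocyte probes, 9 were called higher and none lower, led by Cd68, Cd14 and Coro1a at log2 fold changes of 2.19, 1.94 and 1.73. Their summed signal ran from 4033 to 4834 over the secretory and from 10539 to 13508 over the maturation arrays, and of this list only 1 of 2 probes for Lcp1 was detected on no array. Of 5 osteoclast probes, 3 were called higher, Mmp9, Atp6v0d2 and Ctsk, with summed signals of 5981 to 8536 and 14996 to 19283, of which Ctsk made up 88.0% to 96.9%, and Calcr was undetected. The part of these cells in the values of Itgax, Itga4, Itgb7 and Itgal was not tested.

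Lists of related genes set the members in their pathway. Of 31 probes for integrin adaptors and other proteins that bind beta chain tails, 3 were called higher and 3 lower. This was 9.68% each, against 9.19% and 6.27% of all detected probes. The members Itgb1bp1, Itgb1bp2 and Itgb3bp are among the 31, and 1 probe with the array symbol Lims1 has the gene ID of Gcc2. Higher were Fermt3, the kindlin of blood cells, at 2.11 ± 0.0984, Tln2, a talin, at 1.28 ± 0.128, and Cib1 at 0.89 ± 0.0750. Lower were both probes of Fermt1, the kindlin of epithelia, at -1.35 ± 0.146 and -1.09 ± 0.119, and Parvb, a parvin, at -1.30 ± 0.0925.

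Of 16 integrin ligand genes with a probe, 6 were called higher and 1 lower (37.5% and 6.25%, against 9.19% and 6.27% of all detected probes). The largest rises were Spp1, osteopontin, at 3.62 ± 0.234, Ibsp, bone sialoprotein, at 1.95 ± 0.156, and Tgfb1, whose latent form is a ligand of the receptor that holds Itgb6, at 1.94 ± 0.178. The one fall was Tgfb3, another TGF-beta, at -1.25 ± 0.120 (adjusted p = 4.06e-05). Of 20 genes of other basement membrane components, 2 were called higher and none lower: Col15a1 at 1.12 ± 0.194 and Col18a1 at 1.10 ± 0.0901, collagens of vascular and epithelial basement membranes. The collagen IV genes Col4a1 and Col4a2, named after their values were seen, differed by 0.45 (adjusted p = 0.0173) and 0.44 (adjusted p = 0.2).

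Epithelial markers were set beside the falls of Itgb6 and Lamb3, which are genes of epithelial cells, and of Dst, which has an epithelial form among others. Of 3 epithelial probes, Cdh1, which encodes E-cadherin, was called lower at -1.17 ± 0.231, while Epcam differed by -0.04 (adjusted p = 0.817) and Krt14, a basal keratin, was higher by 0.53 (adjusted p = 0.000207). Their summed signal, 84.3% to 91.7% of it from Krt14, ran from 19879 to 21530 over the secretory and from 25267 to 29251 over the maturation arrays. Among fibroblast and dental mesenchyme probes none of 6 was called, with summed signals of 59560 to 70638 and 76612 to 79613. The part of a change in cell mixture in these values was not tested.

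The called values differed in how much they moved with the processing. Dst, Itgb6, Lama5 and Lamb2 kept direction and call in all 20 alternatives, the 8 that leave out 1 array each included. Lama1 lost the call, at log2 fold changes from -0.84 to -0.56, with median scaling, without normalization between arrays, without background correction and with an offset of 50. Lamb3 lost it only without normalization between arrays, at -0.72.

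**Figure D4:**
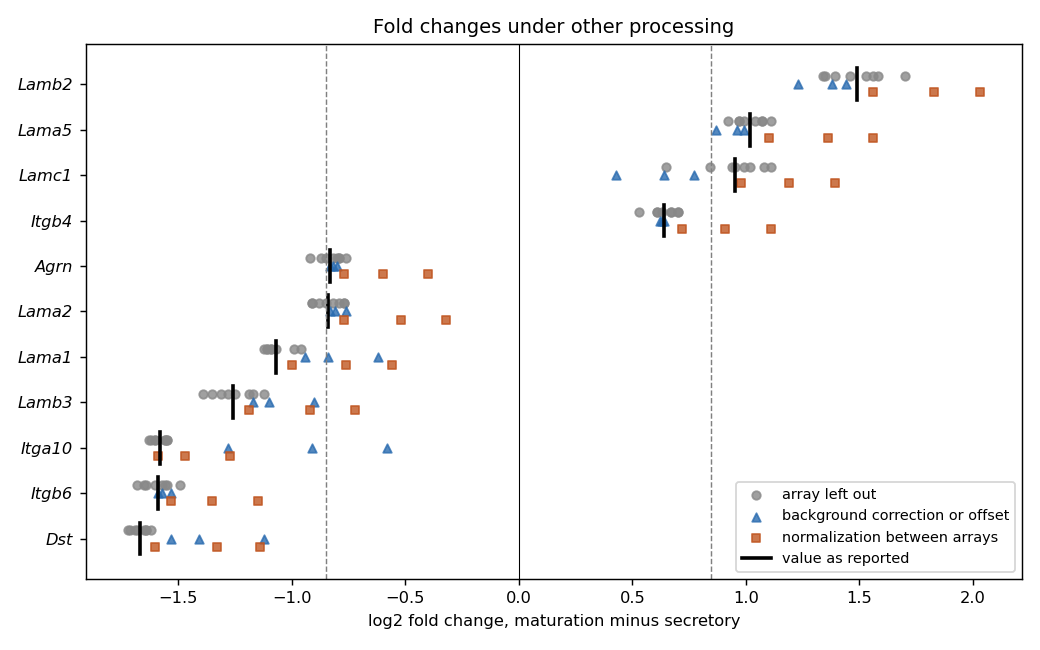
The log2 fold change (x axis, maturation minus secretory) of called genes other than Itgax and of Itgb4, Agrn and Lama2, with a black line for the value as reported and points for 8 fits that each leave out 1 array, 3 other background settings and 3 other ways of normalizing between arrays; dashed lines mark the fold threshold of 1.8. No point crosses 0, and the points of Dst, Itgb6, Lama5 and Lamb2 all stay beyond the threshold, while those of Lamc1, Lama1, Lamb3 and Itga10 cross it.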

How the data were processed

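Enamel organ RNA from 4 secretory and 4 maturation samples was measured on Illumina RatRef bead arrays. The deposited table holds, for each array, the authors' non-normalized mean bead signal as intensity, a detection p-value, the standard error and the number of beads (median 41 to 42 per probe and array), and all its columns were mapped to samples by name. The genome build of the array annotation is not given in the sources used here. The deposited intensities were corrected and normalized with limma 3.58.1 in R 4.3.3 (neqc: negative controls inferred from the deposited detection p-values, offset 16, quantile normalization, log2). A probe counted as detected at a detection p-value below 0.05. Linear models were fitted over all 22523 probes without a block (lmFit, eBayes), and p-values were adjusted by Benjamini and Hochberg. Calls required an adjusted p below 0.05 and a fold of at least 1.8. Signals of different probes are not on 1 scale, so levels were compared between stages only, and the summed signals of marker lists weigh bright probes most. The precision is limited by the number of arrays. Since each rat gave both samples, replicate numbers pair the arrays: the deviations of same-numbered arrays from their stage means correlated at 0.129 to 0.234 over 11233 probes, and at -0.0755 to -0.0416 on average with those of other rats, and a fit that blocks on the rat was among the alternatives.

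Gene IDs of 17430 probes matched the RefSeq gene table (GRCr8), which named the 7 genes with provisional symbols. Values are given for every called member, every hemidesmosome gene, Itgb6, Itgav, Itgb1, Dag1, the leukocyte integrins and the members nearest the threshold, and of each partner or marker list at most 3 rises and 3 falls. A gene that the symbol rule also takes is not reported here, and the counts of members leave it out. Itgad was placed with the leukocyte integrins by its known family. The members, lists and tests were chosen with earlier results of these data known. Alternatives were other background corrections, an offset of 50, cyclic loess, median scaling, no normalization between arrays, a detection filter, the methods' Student test, the rat as a block, array weights, an adjusted p below 0.01, no fold threshold, and each array left out. Motifs were searched in promoter sequences with Python 3.11.15.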

Additional observations from a re-analysis of the deposited data

Results flagged for a closer look

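Of 75 sets of 4 arrays (each of the 38 members and of the 7 genes named by gene ID, at each stage with at least 1 array on which it was detected), 5 held 1 value whose gap to the nearest of the others, divided by the range of the set, passed Dixon's test for a set of 4, where chance gives 3.75. The secretory array of rat 4 was low for Agrn, at 11.56 against 11.92 to 11.94. The secretory array of rat 1 was low for Itgb1, at 12.12 against 12.38 to 12.42. The maturation array of rat 4 was low for Lama1, at 6.16 against 6.56 to 6.63, and for Itga5, at 8.69 against 8.76 on each of the other 3. For Itgax, outside the 38, the secretory array of rat 2 was high, at 5.21 against 4.68 to 4.75.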

How the results depend on the processing

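The count of members called higher was 3, and 2 to 3 with each array left out in turn. It was 9 with no fold threshold and 7 with no normalization between arrays. The count called lower was 4, and 4 to 6 with each array left out. It was 2 without background correction and 9 with no fold threshold. With the rat as a replicate block, 2 members were called higher and 4 lower: Lamc1 lost its call and the block changed no other call among the 38. Over all probes 1745 were called, 923 without background correction and 6051 with no fold threshold. Without normalization between arrays the median log2 fold change of all probes was 0.13, and of the calls 87.2% were higher, against 59.3% as reported, 77.6% with median scaling and 47.7% with no fold threshold. The summed signal as deposited ran from 11881691 to 12046793 over the secretory arrays and from 13355073 to 16122665 over the maturation arrays. Quantile normalization makes such sums equal between arrays. Signs turned only in genes that were not called. Without normalization between arrays these were Col17a1 (0.14), Itga1 (0.37), Itga7 (0.45), Itgb3bp (0.2) and Nid1 (0.02). With median scaling they were Itga1 (0.18), Itga2 (-0.08), Itga7 (0.25), Itga8 (-0.00091), Itgad (-0.02) and Itgb8 (-0.1). Itga7 turned to 0.01 and Itgb8 to -4.9e-05 with cyclic loess, Itgb8 to -0.0026 with an offset of 50, and Itgb8 and Nid2 both to -0.01 with array weights. With each array left out in turn, Dag1 ran from -0.0017 to 0.09, Itga2 from -0.02 to 0.07, Itga7 from -0.12 to 0.00062, Itgb8 from -0.08 to 0.13 and Nid2 from -0.06 to 0.16. The cause was not tested. Depth of signal limits the dim probes: Lamc1, Itgax, Itga10 and the leukocyte integrins lie near background, where the fold depends on the correction chosen.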
